A study of Mus musculus with 6 samples.

Results

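Hox genes encode the homeodomain transcription factors that mark positions along the body axis. They were taken from the deposited table by symbol, as every gene named *Hoxa*, *Hoxb*, *Hoxc* or *Hoxd* followed by digits only, which leaves out antisense and other RNAs of the same loci. This gave 33 of the 19831 listed genes, out of 39 Hox genes that RefSeq annotates in the mouse genome build GRCm38.p6. The samples were whole inguinal adipose tissue (iAT), the subcutaneous fat depot of the groin, from mice at postnatal day 6. There were 3 wild-type (WT1 to WT3) and 3 *Npffr1*-KO samples (KO1 to KO3), the latter lacking neuropeptide FF receptor-1, a receptor for neuropeptides of the RFamide family. No treatment of either genotype is labelled. For mice of this age the study's methods name male C57BL/6 animals kept under SPF conditions. They do not say whether this covers the samples analysed here, whose labels give neither sex nor strain. How the *Npffr1* gene was disrupted and whether each sample was 1 animal are not stated in the labels or methods read here, so that the spread between samples may be partly technical.

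Hox genes lie in 4 clusters, *Hoxa* on chromosome 6, *Hoxb* on chromosome 11, *Hoxc* on chromosome 15 and *Hoxd* on chromosome 2. The number in a gene's name gives its place in the cluster, and genes of the same number in different clusters are paralogues. In the embryo, genes with low numbers are switched on early and toward the head, and genes with high numbers later and toward the tail and the tip of the limb. Polycomb proteins keep the unused part of each cluster silent, and Trithorax proteins keep the used part active. Connective tissue cells and adipocyte progenitors retain such a combination after birth, and fat depots of different body regions differ in it. The question was therefore which Hox genes the iAT expressed, and whether wild-type and *Npffr1*-KO iAT had the same combination.

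The table gives 1 value per gene and genotype, which is the authors' value in normalized counts and has no spread between samples. All genotype values below are of this kind. The normalized counts of all listed genes summed to 23137343 in wild-type and 23640005 in *Npffr1*-KO iAT, and those of the Hox genes, scaled to a sum of 1000000, to 463 and 444. Both values of a gene average to its mean over all 6 libraries, and their ratio is the fold change of the authors' fit. The 2 values of a gene with few or uneven reads are therefore drawn together. For 7165 of the 7172 genes whose mean lay at or under 75 normalized counts, the whole reads of each library could be recovered from the values, including all 7 Hox genes of that range. The libraries are called A, B and C (wild-type) and D, E and F (*Npffr1*-KO) and are not tied to the sample numbers. Adipocyte markers were abundant, with 156285 normalized counts of *Fabp4* in wild-type and 173188 in *Npffr1*-KO iAT. Library D stood apart by 505 reads of 3 skeletal muscle markers, against 1 to 9 in each of the other libraries. *Npffr1* itself had 1, 0 and 5 reads in the wild-type libraries and 0 in each *Npffr1*-KO library.

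Nearly the whole trunk part of the Hox code was expressed in iAT, and it ended at the same paralogue number in each cluster that reaches so far. Of the 33 listed Hox genes, 28 reached a mean of 10 normalized counts and are called expressed here. The lowest of them was *Hoxa6* with a mean of 13.2, and the highest of the remaining 5 was *Hoxc13* with 2.60. The number of genes at or above 10 was 9 of 11 annotated *Hoxa* genes, 8 of 10 *Hoxb* genes, 6 of 9 *Hoxc* genes and 5 of 9 *Hoxd* genes. The 5 genes below were *Hoxa11*, *Hoxc11*, *Hoxc13*, *Hoxd1* and *Hoxd11*. A further 6 genes, *Hoxa13*, *Hoxb1*, *Hoxb13*, *Hoxc12*, *Hoxd12* and *Hoxd13*, are not in the table. Every annotated gene numbered 11 to 13 was thus either low or not listed, in all 4 clusters. By number, the expressed genes ran up to 10 in *Hoxa*, from 2 to 9 in *Hoxb*, from 4 to 10 in *Hoxc* and from 3 to 10 in *Hoxd*.

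**Figure D1:**
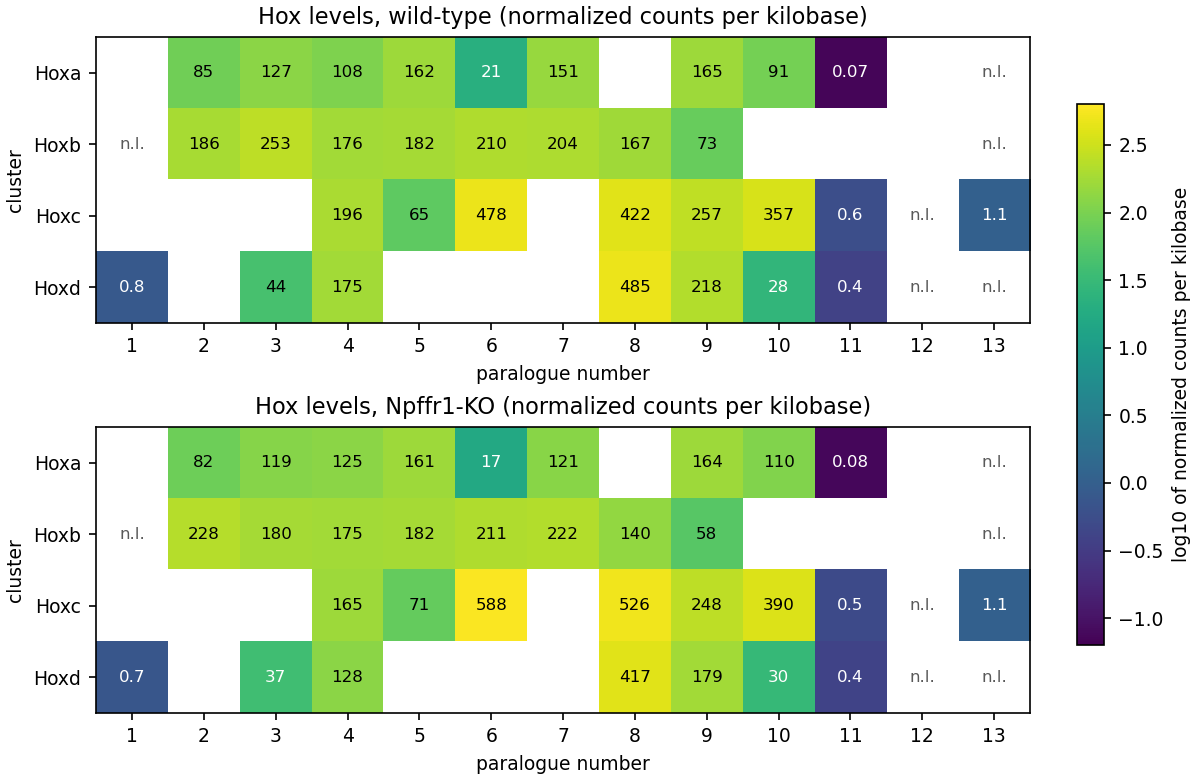
Level of listed Hox genes in wild-type (upper panel) and *Npffr1*-KO iAT (lower panel), in the authors' normalized counts divided by gene length in kilobases, with the colour on a log10 scale, the cluster on the vertical axis and the paralogue number on the horizontal axis. A blank cell is a number that the cluster does not hold or a gene not reported here, and n.l. marks a gene that is not listed. In both genotypes the cells of number 11 and of *Hoxd1* and *Hoxc13* hold values of 1.1 or less, while the other genes shown hold 16.5 or more.

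Levels of different genes are compared below as normalized counts per kilobase of the listed gene length. Summed over each cluster in wild-type iAT, *Hoxc* genes had the highest share of the Hox total with 34.6%, followed by *Hoxb* with 28.3%, *Hoxa* with 18.6% and *Hoxd* with 18.5%. In *Npffr1*-KO iAT the shares were 38.9%, 27.3%, 18.4% and 15.5% in the same order of clusters. The order of the clusters was thus the same in both genotypes, although *Hoxa* and *Hoxd* were nearly equal in wild-type iAT. By paralogue number, the genes of numbers 4 to 8 held 62.4% of the wild-type and 63.4% of the *Npffr1*-KO total. Those of numbers 1 to 3 held 14.4% and 13.5%, and those of numbers 9 and above 23.2% and 23.1%. The 3 genes of number 8 alone, *Hoxb8*, *Hoxc8* and *Hoxd8*, held 20.9% and 21.2%. Numbers 11 to 13 together held 0.0412% and 0.0397%.

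The highest levels belonged to genes that pattern the chest and lumbar trunk. *Hoxd8* had 485 normalized counts per kilobase in wild-type and 417 in *Npffr1*-KO iAT. *Hoxc6*, which acts at the border of neck and chest and in the forelimb region, had 478 and 588. *Hoxc8*, a regulator of thoracic skeleton and of forelimb motor neurons, had 422 and 526. These 3 genes held ranks 1 to 3 in both genotypes, with *Hoxd8* at rank 1 in wild-type and rank 3 in *Npffr1*-KO iAT. *Hoxc10*, one of the lumbar genes, followed with 357 and 390, and *Hoxc9*, which sets thoracic identity, with 257 and 248. *Hoxd8* stood at the 80.3 percentile of all listed genes per kilobase in wild-type iAT, so the highest Hox genes were expressed above most genes of the tissue.

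Within *Hoxa*, the levels of most genes lay close to one another. *Hoxa9*, a gene known from blood stem cells and leukaemia, was highest in wild-type iAT with 165 normalized counts per kilobase, and had 164 in *Npffr1*-KO iAT. *Hoxa5*, which is needed for lung and airway development, had 162 and 161. *Hoxa7* had 151 and 121. *Hoxa3*, a gene of thymus and parathyroid development, reached 127 and 119, *Hoxa4* 108 and 125, *Hoxa10* 91.2 and 110, and *Hoxa2*, the selector gene of the second pharyngeal arch, 85.3 and 82.1. *Hoxa6* was the exception in the middle of the cluster, with 21.2 and 16.5, although both of its neighbours were high. Taking the mean of the genotypes, *Hoxa5* was 8.57 times and *Hoxa7* 7.23 times as high per kilobase, with 95% exact Poisson intervals of 6.89 to 10.8 and of 5.81 to 9.12 from the 80 reads of *Hoxa6*. Such intervals cover counting error in the lower gene only. The length listed for *Hoxa6*, 699 bases, is the shortest of the 33 Hox genes.

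Within *Hoxb* the levels were more even than in the other clusters. In wild-type iAT, 7 of the 8 listed genes lay between 167 and 253 normalized counts per kilobase. The highest was *Hoxb3* with 253, against 180 in *Npffr1*-KO iAT. *Hoxb6* had 210 and 211, *Hoxb7* 204 and 222, *Hoxb2*, which patterns the hindbrain, 186 and 228, *Hoxb5* 182 and 182, *Hoxb4*, a gene known from blood stem cells, 176 and 175, and *Hoxb8* 167 and 140. *Hoxb9*, the last gene before the long gap to *Hoxb13*, was the lowest with 73.3 and 57.9. *Hoxb1* is not in the table, so this cluster has no value at its head end.

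*Hoxc* and *Hoxd* had wider ranges. Beside the 4 high genes *Hoxc6*, *Hoxc8*, *Hoxc9* and *Hoxc10*, *Hoxc4* had 196 normalized counts per kilobase in wild-type and 165 in *Npffr1*-KO iAT, and *Hoxc5* only 65.2 and 70.7. In *Hoxd*, *Hoxd9* had 218 and 179, *Hoxd4* 175 and 128, *Hoxd3* 43.7 and 36.8 and *Hoxd10* 27.5 and 30.1. *Hoxd8* thus lay far above both *Hoxd3* and *Hoxd10*, and the levels in this cluster were highest in its middle. Of the sequence of 31 bases starting at each position of the *Hoxd3* and *Hoxd4* transcripts in GENCODE M21, 61.1% and 49.1% also occur in other genes, mostly in the overlapping gene *Gm28230*. How the reads of these loci were divided is not known, and the values of *Hoxd3* and *Hoxd4* are uncertain for that reason. The share was 13.7% for *Hoxa2*, 10.5% for *Hoxd11*, 8.24% for *Hoxa3* and 7.34% for *Hoxc10*, and at most 4.55% for the other listed Hox genes.

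The end of the expressed part lay between numbers 10 and 11 in *Hoxa*, *Hoxc* and *Hoxd*, but its height differed. In *Hoxc*, *Hoxc10* had 374 normalized counts per kilobase as the mean of the genotypes and *Hoxc11* had 0.537, a ratio of 695 with an interval of 238 to 3370 from the 3 reads of *Hoxc11*. *Hoxa10* was 1369 times as high as *Hoxa11*, with an interval of 246 to 54088 from the single read of *Hoxa11*. *Hoxd10* was 73.2 times as high as *Hoxd11*, with an interval of 37.1 to 169 from 8 reads. In *Hoxd* the decline therefore took 2 steps, since *Hoxd9* was in turn 6.90 times as high as *Hoxd10*, with an interval of 6.18 to 7.72. *Hoxa10*, *Hoxc10* and *Hoxd10* together pattern the lumbar spine and the upper leg, yet their levels were unequal. *Hoxc10* was 3.71 times as high as *Hoxa10*, and *Hoxa10* was 3.50 times as high as *Hoxd10*, the latter with an interval of 3.13 to 3.91. At the head end of *Hoxd*, *Hoxd3* was 51.8 times as high as *Hoxd1*, with an interval of 27.3 to 113 from 9 reads.

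The promoters on both sides of this border in *Hoxd* are shown because the level changed over a short stretch of the cluster. Each is the RefSeq sequence from 250 bases before to 50 bases after a gene start, on the plus strand of GRCm38.p6, printed 5′ to 3′ with CpG dinucleotides in capitals. *Hoxd11* has 2 annotated starts. The sequences are those of *Hoxd9* at chr2:74697513-74697812, *Hoxd10* at chr2:74691641-74691940, and *Hoxd11* at chr2:74682073-74682372 (start 1) and chr2:74679308-74679607 (start 2).
Hoxd9: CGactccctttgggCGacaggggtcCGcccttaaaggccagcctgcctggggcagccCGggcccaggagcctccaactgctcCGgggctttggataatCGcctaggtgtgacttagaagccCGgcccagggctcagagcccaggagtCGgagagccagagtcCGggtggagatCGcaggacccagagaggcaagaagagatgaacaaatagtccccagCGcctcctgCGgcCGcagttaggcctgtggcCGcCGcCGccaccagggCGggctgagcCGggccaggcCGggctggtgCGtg
Hoxd10: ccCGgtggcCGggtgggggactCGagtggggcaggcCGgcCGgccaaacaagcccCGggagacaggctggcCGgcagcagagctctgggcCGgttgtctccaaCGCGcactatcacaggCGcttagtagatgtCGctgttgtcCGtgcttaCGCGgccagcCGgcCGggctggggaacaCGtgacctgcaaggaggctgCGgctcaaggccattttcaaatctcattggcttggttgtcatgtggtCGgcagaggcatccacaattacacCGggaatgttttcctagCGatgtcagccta
Hoxd11, start 1: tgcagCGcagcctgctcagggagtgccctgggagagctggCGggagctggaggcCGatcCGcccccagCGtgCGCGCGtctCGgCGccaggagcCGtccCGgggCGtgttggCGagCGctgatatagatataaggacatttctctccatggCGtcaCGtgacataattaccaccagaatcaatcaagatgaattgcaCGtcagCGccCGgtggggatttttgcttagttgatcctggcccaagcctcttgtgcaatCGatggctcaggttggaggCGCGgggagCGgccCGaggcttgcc
Hoxd11, start 2: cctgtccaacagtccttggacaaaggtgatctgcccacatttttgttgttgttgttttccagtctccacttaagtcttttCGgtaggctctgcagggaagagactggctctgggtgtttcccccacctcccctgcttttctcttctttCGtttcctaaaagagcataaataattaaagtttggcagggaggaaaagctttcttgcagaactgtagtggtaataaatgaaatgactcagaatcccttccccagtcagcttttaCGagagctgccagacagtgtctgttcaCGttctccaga
The CG letters, which read the same on both strands, occurred 20 times in the *Hoxd9* promoter and 22 times in that of *Hoxd10*. They occurred 25 times at start 1 and 4 times at start 2 of *Hoxd11*. Of all 32851 promoters of this length, 26.5%, 23.1%, 18.4% and 68.6% held at least as many. The 16 promoters found for 15 of the 28 expressed Hox genes had a median of 13.5 CpG, and the 8 promoters found for 7 of the 11 low or unlisted genes had a median of 20, against 7 over all promoters. Counts ran from 4 to 29 in the promoters of expressed genes and from 4 to 45 in the others, so the 2 groups overlapped.

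The reads of the low genes were few in every library. The libraries are given in the order A, B, C for wild-type and D, E, F for *Npffr1*-KO iAT. *Hoxa11*, a gene of forearm, kidney and uterus, had 0, 0, 0 and 0, 1, 0 reads. *Hoxc11*, a sacral and hindlimb gene, had 1, 0, 2 and 0, 0, 0 reads. *Hoxd11*, the partner of *Hoxa11* in the forearm, had 3, 1, 0 and 1, 2, 1 reads, and was found in 5 of the 6 libraries. *Hoxd1* had 1, 5, 0 and 3, 0, 0 reads. Over all 5 low genes the libraries had 6, 6, 9, 12, 3 and 1 reads, 37 in all, and for none of the 5 were the genotypes separate.

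The reads of *Hoxc13*, the highest of the low genes, lay mainly in 2 libraries. It had 1, 0 and 7 reads in wild-type and 8, 0 and 0 reads in *Npffr1*-KO libraries, so that 15 of its 16 reads were in C and D. *Hoxc13* is known from hair follicles and nails, where it drives keratin genes. The basal skin keratin *Krt5* had 0, 0 and 11 and then 21, 0 and 0 reads, and *Krt14* had 0, 0 and 6 and then 11, 1 and 1 reads. The summed reads of all 6 recovered keratinocyte and mammary epithelial markers were 52, 66 and 73 and then 95, 69 and 51, with *Krt5* and *Krt14* at or near 0 in A, B, E and F. The other markers did not lie mainly in C and D. *Krt18* had 16, 20 and 22 and then 10, 28 and 14 reads, and *Krt8* had 10, 9 and 9 and then 4, 7 and 8. *Epcam* had 25, 36 and 25 and then 49, 33 and 28 reads, and *Krt15* had 1, 1 and 0 and then 0, 0 and 0. The part of skin cells in the *Hoxc13* reads was not tested.

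**Figure D2:**
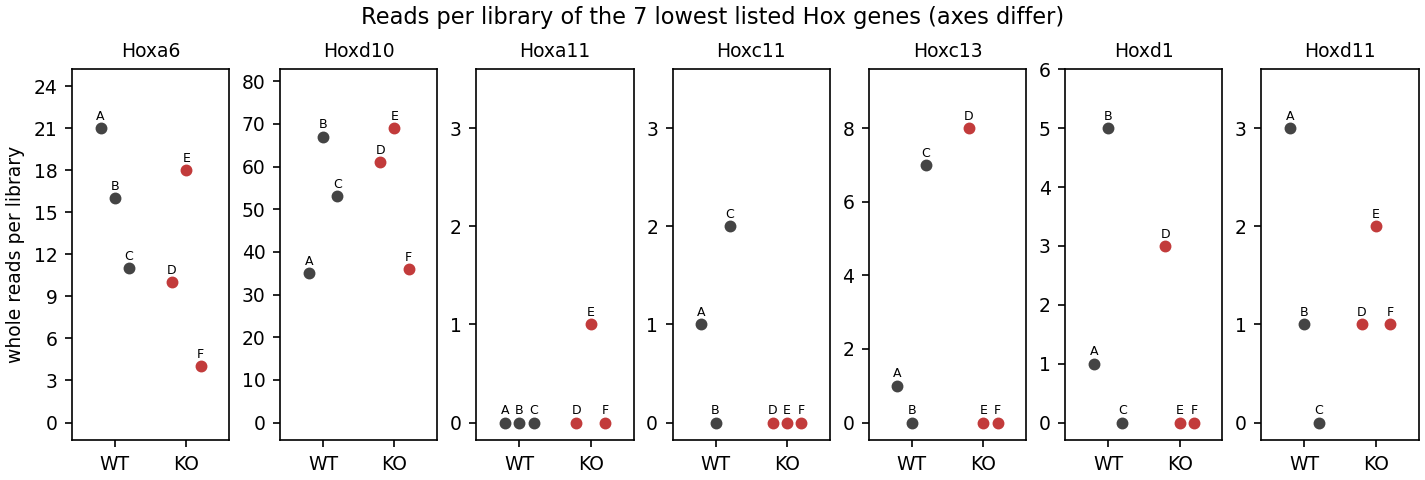
Whole reads per library of the 7 listed Hox genes with the lowest means, 1 panel per gene with its own linear vertical axis, for wild-type (WT, grey) and *Npffr1*-KO (KO, red) libraries named A to F. The reads of the genotypes overlap for *Hoxa6* (4 to 21) and *Hoxd10* (35 to 69), and those of *Hoxc13* lie almost wholly in C and D.

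The same border was seen in each genotype, with 0 to 3 reads of every number 11 gene in each library. In the fitted values before centring, no expressed Hox gene differed by 0.5 or more on the log2 scale. The difference of *Hoxa6* in reads was larger, at -0.65 with a standard error of 0.55. Of the 28 expressed genes, 0 were higher and 0 were lower in *Npffr1*-KO iAT by the limit of 0.5 in the fitted values. Over all 15309 listed genes that reached the same mean, 4.37% were higher and 4.78% lower. A count of 0 among 28 genes is near those shares and says nothing particular about the Hox genes. No test was run on these ratios, since the table lists 1 value per genotype and the authors' p-values were not used. Among 565 genes with recovered reads and a mean from 50 to 75, the spread between libraries gave a log2 difference in reads a median standard error of 0.26. This is not the standard error of the fitted ratios. At a limit of 0.3, 1 Hox gene was higher and 5 were lower, where 13.7% of all genes were higher and 12.9% lower. The higher gene was *Hoxc8*, with 999 normalized counts in wild-type against 1246 in *Npffr1*-KO iAT (0.32 on the log2 scale), and *Hoxc6* (0.30) and *Hoxb2* (0.30) lay just under that limit.

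The 5 genes lower past 0.3 came from 3 clusters. *Hoxb3* had 848 normalized counts in wild-type against 605 in *Npffr1*-KO iAT, a log2 ratio of -0.49, and *Hoxd4* had 449 and 326, a log2 ratio of -0.46. *Hoxa6* (-0.36), *Hoxb9* (-0.34) and *Hoxa7* (-0.32) followed. The log2 ratios of all genes varied with gene length, and after centring on genes of like length the split at 0.3 was 0 higher and 7 lower, with *Hoxc4* and *Hoxd9* added and *Hoxc8* within the limit. Over all genes the shares were then 9.39% higher and 12.8% lower. *Hoxa6* also lay past 0.5, where 3.36% of all genes were higher and 5.17% lower.

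**Figure D3:**
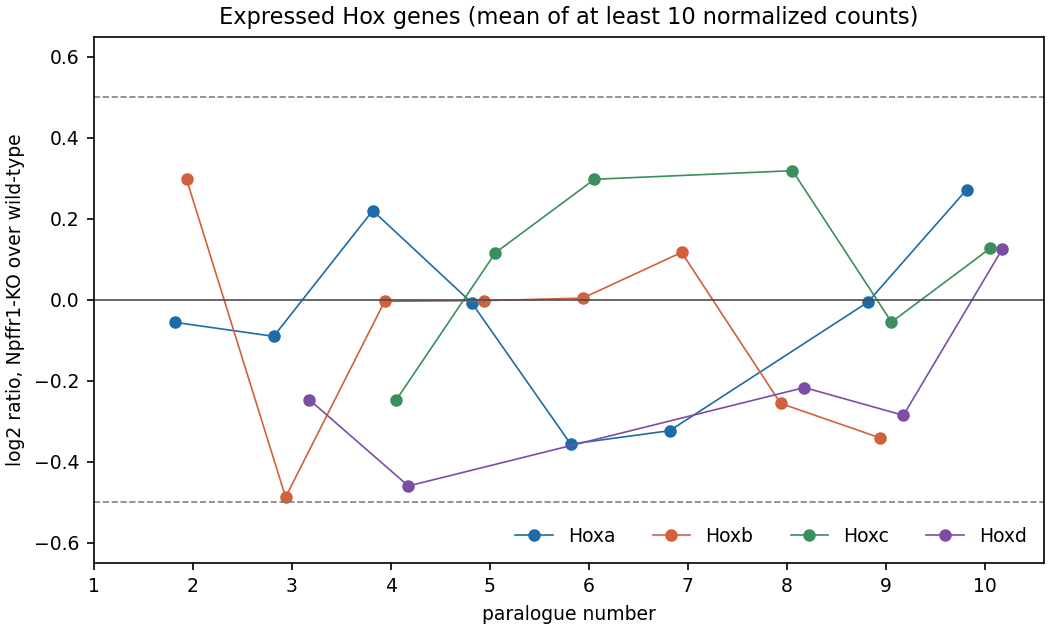
Log2 ratio of the *Npffr1*-KO over the wild-type value for the expressed Hox genes reported here, against paralogue number, with genes of a cluster joined by a line and points shifted sideways by cluster. Dashed lines mark 0.5 in either direction, which no point reaches. *Hoxb3* at -0.49 and *Hoxc8* at 0.32 are the extremes.

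These differences were near those of other genes in size. The median size of the log2 ratio was 0.22 over the 28 Hox genes, 0.18 over all 15309 genes, and 0.19 over the 10201 genes in the same range of means. The median log2 ratio of the Hox genes was -0.01 and that of all genes 0.01, and 11 Hox genes lay above 0 and 17 below, where 48.8% of all genes lay below.

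By cluster, 4 of 6 *Hoxc* genes were above 0, with a median of 0.12, and 4 of 5 *Hoxd* genes were below, with a median of -0.25. Both counts were the same after centring on the median gene or on genes of like length, where the medians were 0.11 and 0.07 for *Hoxc* and -0.26 and -0.29 for *Hoxd*. *Hoxd3* and *Hoxd4* are the genes with uncertain values. *Hoxa* had 3 genes above and 6 below 0, with a median of -0.01, and *Hoxb* had 3 above and 5 below, or 1 above and 7 below after centring on genes of like length. By number, all 3 genes of number 10 were above 0, from 0.13 to 0.27, and all 3 of number 3 were below, from -0.49 to -0.09, under every centring, although the sign of *Hoxd10* in its reads depended on single libraries. The 4 genes of number 9 were below 0, from -0.34 to -0.01, but *Hoxa9* was above 0 after centring on genes of like length. Markers of other cell types also differed between the genotypes. The 7 fibroblast and adipocyte progenitor markers, of cells known to keep a Hox code, had a median log2 ratio of -0.17, from -0.37 to 0.01. They summed to 359236 and 286492 normalized counts, of which *Col1a1* alone made up 297042 and 231621. Medians were also below 0 for endothelial (-0.41, from -0.44 to -0.28 over 5 genes) and cartilage and bone markers (-0.24, from -0.61 to 0.45 over 4). For keratinocyte and mammary epithelial markers the median was -0.07, from -0.13 to 0.34 over 3 genes. Medians were above 0 for skeletal muscle (0.75, from 0.27 to 1.26), lymphocyte (0.33, from 0.08 to 0.77) and erythroid markers (0.22, from 0.15 to 0.51). They were also above 0 for macrophage (0.24, from -0.07 to 0.48) and adipocyte markers (0.15, from -0.07 to 1.05). The recovered reads of 3 skeletal muscle markers lay almost wholly in library D, with 505 against 1 to 9 in each other library. The part of these cell types in the Hox ratios was not tested. In whole tissue, fewer cells of a type and less RNA per cell cannot be told apart. The Hox directions were not tested here apart from *Hoxd10* and *Hoxa6*, since the reads of the other expressed genes were not recovered and the authors' p-values were not used.

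For *Hoxa6* and *Hoxd10* the reads of each library could be compared. *Hoxd10*, which specifies lumbar motor neurons, had 35, 67 and 53 reads in wild-type and 61, 69 and 36 reads in *Npffr1*-KO libraries. Divided by the size factors this was 50.7 ± 16.0 and 55.9 ± 15.4 normalized counts (SD, n = 3 each). The genotypes overlapped, with 35 and 36 reads in the lowest and 67 and 69 in the highest library of each. The log2 difference was 0.15 with a standard error of 0.31 and a 95% interval of -0.52 to 0.82 (limma, adjusted p = 0.88 after Benjamini-Hochberg adjustment).

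*Hoxa6* had 21, 16 and 11 reads in wild-type and 10, 18 and 4 reads in *Npffr1*-KO libraries, or 15.6 ± 4.68 and 10.7 ± 6.96 normalized counts (SD, n = 3 each). Library F was the lowest and library A the highest, and the others overlapped. The log2 difference was -0.65 with a standard error of 0.55 and a 95% interval of -1.81 to 0.51 (limma, adjusted p = 0.68). Of the 2643 genes tested in this way, limma called 0, which is 0.0%, while 325 had an unadjusted p under 0.05. Both intervals include differences larger than those of the other Hox genes. Without library F the difference of *Hoxa6* was -0.18, and without library E it was -1.10. Without library D, which held the muscle reads, it was -0.67, and that of *Hoxd10* was 0.10. The difference of *Hoxd10* changed sign without library A (-0.11) and without library E (-0.02), so its direction rested on single libraries.

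Wild-type and *Npffr1*-KO iAT had nearly the same order of Hox levels. Spearman's rho between the genotypes was 0.981 over the 33 listed genes and 0.969 over the 28 expressed ones, both per kilobase. Over the 15309 genes of all kinds it was 0.993. These values are descriptions, since each gene's 2 values come from 1 fit and share its length, and the low genes' values are drawn together. The 5 highest Hox genes were the same 5 in both genotypes, and 8 of the 10 highest were shared. Of the 28 expressed genes, 7 had the same rank, the median change was 1 rank and the largest was 5. *Hoxb2*, which went from rank 11 in wild-type to rank 6 in *Npffr1*-KO iAT, made that largest move.

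**Figure D4:**
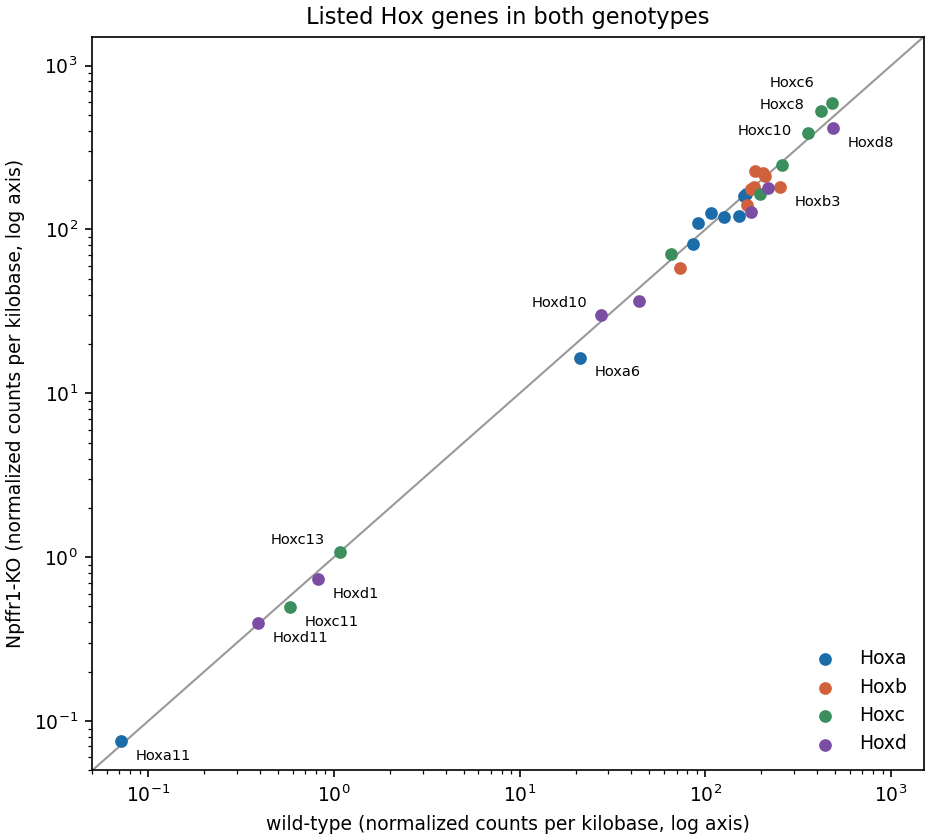
Level of the listed Hox genes reported here in wild-type (horizontal axis) and *Npffr1*-KO iAT (vertical axis), in normalized counts per kilobase on log axes, coloured by cluster, with the line of equal values in grey. The 5 low genes lie apart at values of 1.1 or less in both genotypes, and *Hoxc6*, *Hoxc8* and *Hoxd8* are highest in both.

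The cofactors that Hox proteins bind DNA with were expressed in both genotypes. The TALE class comprises the Pbx proteins, which form dimers with Hox proteins on DNA, and the Meis and Pknox proteins, which bind Pbx. All 9 members reached a mean of 10 normalized counts, 0 were past 0.5 in either direction, and the median log2 ratio was -0.03, beside 0.01 over all genes. With 4.37% of all genes higher and 4.78% lower past that limit, a count of 0 among so few members says nothing particular about them. *Pbx2* had 2111 normalized counts in wild-type against 1944 in *Npffr1*-KO iAT, *Pknox1* 602 and 666, and *Meis2* 469 and 433. Log2 ratios ran from -0.34 to 0.15.

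Of 28 upstream and chromatin regulators of Hox clusters, 26 were listed and 25 reached that mean. Again 0 were past 0.5 in either direction, which is near the shares of 4.37% higher and 4.78% lower over all genes. The median log2 ratio of these regulators was -0.01, with a range of -0.32 to 0.40. Among them, *Phc2*, a subunit of Polycomb complex PRC1, had 2550 normalized counts in wild-type against 2703 in *Npffr1*-KO iAT. *Ctcf*, whose protein sets borders within Hox clusters, had 2418 and 2405. *Kdm6b*, a demethylase that removes the Polycomb mark, had 2365 and 2183, and *Kmt2a*, the Trithorax-type methyltransferase that maintains Hox expression, had 2288 and 2038. Of the Cdx genes, which activate Hox genes of the trunk in the embryo, *Cdx1* and *Cdx4* are not in the table and *Cdx2* had 1 read in all libraries together.

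Most noncoding RNAs from within the clusters had few reads. Of 18 looked for, 13 were listed and 5 reached a mean of 10 normalized counts, with 0 higher and 1 lower past 0.5, where 4.37% of all genes were higher and 4.78% lower. *Hotairm1*, an RNA of the *Hoxa* cluster, was the highest with 88.2 normalized counts in wild-type against 115 in *Npffr1*-KO iAT. Over its listed length of 253 bases this was 348 and 453 normalized counts per kilobase. *Hoxaas2* had 27.0 and 26.9 normalized counts. *Haglr*, an RNA of the *Hoxd* cluster, was the one past the limit, with 15.4 and 10.8, a log2 ratio of -0.51. Its reads were 16, 16 and 19 in wild-type and 18, 9 and 2 in *Npffr1*-KO libraries, so the genotypes overlapped through library D, and the log2 difference was -1.07 with a standard error of 0.62 (limma, adjusted p = 0.52). *Hotair*, transcribed between *Hoxc11* and *Hoxc12*, had 3, 0 and 1 and then 0, 4 and 2 reads, and so was low, as *Hoxc11* was. Without knowledge of whether the counting used strand, reads of an antisense RNA and of the Hox gene it overlaps cannot be told apart.

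Several genes just outside the clusters had many reads. Of 15 looked for, 11 were listed and 9 reached a mean of 10 normalized counts, with a median log2 ratio of 0.16. *Hnrnpa1*, beyond *Hoxc4*, had 6182 normalized counts in wild-type against 6107 in *Npffr1*-KO iAT, and *Hibadh*, beyond *Hoxa13*, had 4289 and 5006. *Skap1*, beside *Hoxb1* and known as an adaptor of T cells, was the only one of these 9 past 0.5, with 434 and 686, a log2 ratio of 0.66, where 4.37% of all genes were higher past that limit. The 7 lymphocyte markers had a median log2 ratio of 0.33, 3 of them higher past 0.5 against the same 4.37% of all genes, and their part in the *Skap1* value was not tested. Of 10 head-type and ParaHox homeobox genes, which lie outside the Hox clusters, 6 were listed and 2 reached a mean of 10. *Emx2*, a gene of forebrain, kidney and shoulder girdle, had 143 and 76.3 normalized counts, a log2 ratio of -0.91, and *Hesx1* had 21.2 and 23.6.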

How the data were processed

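Total RNA of iAT was sequenced in 3 samples of each genotype. The submitters' processing notes name Bowtie2, RSEM and DESeq2; neither they nor the methods state versions, a build or an annotation. The deposited table holds 1 signal per gene and genotype, which the authors made from read counts normalized for library size, and the gene length in bases. It also holds the authors' p-values, which were not used, and the authors' fold changes. The fold changes were not used as a separate column. The log2 ratio of a gene's genotype values, before any centring or pseudocount, is nevertheless the fold change of the authors' fit. It is therefore not an independent measure. A second table repeats 90 of the genes and was not used.

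Single-read genes (585) fall on 6 units, which gave the size factors of the libraries (0.916 to 1.04) and their genotypes. All combinations of whole reads matching the mean of the deposited values to its 15 digits were searched up to a mean of 75. Exactly 1 combination was found for 99.9% of the 7172 genes searched, and the direction of the reads was that of the deposited values for 100% of 5044 genes with a log2 ratio over 0.1 in size. Genes with a mean of at least 10 were compared on log2(reads divided by size factor + 1) with limma 3.58.1 (trend, two-sided, adjusted p threshold of 0.05) in R 4.3.3. The search and the test were tested on simulated data. Other genes were described by the log2 ratio of the 2 values, with a limit of 0.5. Among 565 recovered genes with a mean of at least 50, the median SD within a genotype was 0.32 on the log2 scale, which gives a difference of 3 against 3 libraries a standard error of 0.26. That spread is only a rough guide for the Hox genes without recovered reads, whose means lay above 75. It comes from reads and is not the standard error of the authors' fitted ratios. Arithmetic was done in Python 3.11.15 with scipy 1.17.1. Shared sequences of 31 bases were counted in GENCODE M21 transcripts, and promoters were taken from RefSeq (GRCm38.p6).

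All Hox genes may be named, except that some values are not reported here, and from each other list the 4 members with the highest mean and those past 0.5. The members, lists and tests were chosen with earlier results of these data known. Alternatives were other limits, minimums and pseudocounts, centring on the median gene or on genes of like length in 20 classes, and leaving out each library.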

Additional observations from a re-analysis of the deposited data

How the results depend on the processing

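The counts of Hox genes past the limit depended on the limit. At 0.3 instead of 0.5 there were 1 higher and 5 lower, where 13.7% of all genes were higher and 12.9% lower. After centring on genes of like length 1 was lower at 0.5 (*Hoxa6*), where 3.36% of all genes were higher and 5.17% lower. With both changes together, an alternative chosen after seeing the data, 7 were lower, where 12.8% of all genes were lower. The counts stayed at 0 in each direction with a limit of 1, without a minimum or with a minimum of 50, with pseudocounts of 1 and 10 and after centring on the median gene. The count of expressed genes was 28 under a minimum of 5 and by either genotype's value alone, and 27 under a minimum of 50. The median log2 ratio was -0.11 after centring on genes of like length. That centring changed the sign of 4 of the 28 single ratios, all at most 0.12 in size. limma tested only 2 Hox genes, *Hoxa6* and *Hoxd10*, or 1 of them with a minimum mean of 20 or means up to 25. It called 0 of them under every alternative, those leaving out each library included, and 0 or 1 of all genes tested. With so few calls over all genes, this says nothing particular about the Hox genes. The log2 difference of *Hoxd10* turned to -0.11 without library A and to -0.02 without library E, and was 0.38 without library F; the cause was not tested. No paired analysis was possible because the recovered libraries are not tied to the replicate numbers of the samples. The limits are the single value per genotype, the unknown spread of the 26 higher Hox genes, and the few reads of the 5 low ones, where a difference between genotypes was not detectable at this depth.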
